A study of Mus musculus with 6 samples.

Results

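Phosphate handling and mineralization were examined through 10 genes, *Phex*, *Enpp1*, *Ank*, *Alpl*, *Phospho1*, *Slc20a1*, *Slc20a2*, *Vdr*, *Cyp24a1* and *Fam20c*. They were taken by gene symbol, with every probe of the symbol, and *Alpl* was listed under its older symbol *Akp2*. Of the 31508 symbols on the array 9 were among these genes, with 15 probes, and no probe carried the symbol *Fam20c* or one of its older names. The samples were cortical bone tubes, the shafts of femur and tibia of C57BL6 mice aged 3 months, flushed of marrow and digested with collagenase and trypsin to take off surface cells. After a night in culture the tubes were left untreated (control) or given the PTH fragment 1-34 at 250 nM (PTH) for 24 hours. Each RNA came from about 10 bones pooled from 4 to 5 mice and was hybridized to 1 Illumina mouse bead array, giving 3 control and 3 PTH arrays. The labels do not say whether the replicates were separate cultures, so p-values measure only the spread between these samples.

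Mineral forms where phosphate is released and pyrophosphate, which blocks crystal growth, is removed. Bone cells supply both sides of this balance: phosphatases free phosphate, a further set of proteins makes or exports pyrophosphate, and sodium-dependent transporters carry phosphate into cells. Osteocytes also act on phosphate in the whole body through the hormone FGF23, which sends phosphate out through the kidney, while PTH acts on the kidney directly and through vitamin D.

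Signals were background corrected, quantile normalized and put on the log2 scale. A probe counted as above background at a detection p under 0.05, and testing required this on 3 or more of the 6 arrays. Each gene was represented by its brightest tested probe, and calls needed both a limma adjusted p under 0.05 and a change of 1.5-fold or more. The median deposited signal was 111 to 129 on the control arrays and 112 to 124 on the PTH arrays, and each array detected 34.2% to 38.4% of its probes. Precision is limited by the small number of arrays, and no exact permutation test of 3 against 3 arrays can go below p = 0.1. Markers of osteocytes were measured in 7 of 8 cases, *Fgf23* being above background on no array. Markers of other cells were also present: those of neutrophils and myeloid cells in 8 of 8, of macrophages in 6 of 6, of osteoblasts in 5 of 7, of osteoclasts in 5 of 7, of endothelium in 5 of 5 and of cartilage in 4 of 6 cases. Of the cartilage list *Col2a1* was above background on all 6 arrays and *Acan* (listed as *Agc1*) on the 3 control arrays alone, while *Matn1* was on none. The muscle genes *Acta1*, *Myh4*, *Ckm* and *Tnnt3* were above background on no array, while *Mylpf* of the same list was on all 6.

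Of the 8 genes with a tested probe, none was called by limma, beside a background of 1.73% of all 11979 genes tested. *Phex* and *Alpl* had an unadjusted p under 0.05, 2 of 8 genes, where 14.9% of all genes did (7.39% lower and 7.51% higher with PTH), and both were lower with PTH. The PTH arrays did not overlap the control arrays for 3 of the 8, *Phex*, *Alpl* and *Ank*, again lower with PTH, where 21.9% of all genes did not overlap (10.8% lower and 11.1% higher with PTH). By the brightest probe the mean was lower with PTH for 7 genes and higher for 1, with *Enpp1* counted as lower at -9.03e-05 (log2). *Enpp1*, *Vdr* and *Slc20a1* turned to higher under median scaling, which moved the median log2 fold change of all genes tested to 0.12. These 3 genes were also higher by the mean of all tested probes of a gene, at 0.19, 0.20 and 0.10. The split thus rests on the probe rule and the scaling. The median log2 fold change was -0.16 over the 8 genes and 0.01 over all genes tested. RNA here was from whole bone tubes, in which fewer cells of a type and less RNA per cell cannot be told apart.

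**Figure D1:**
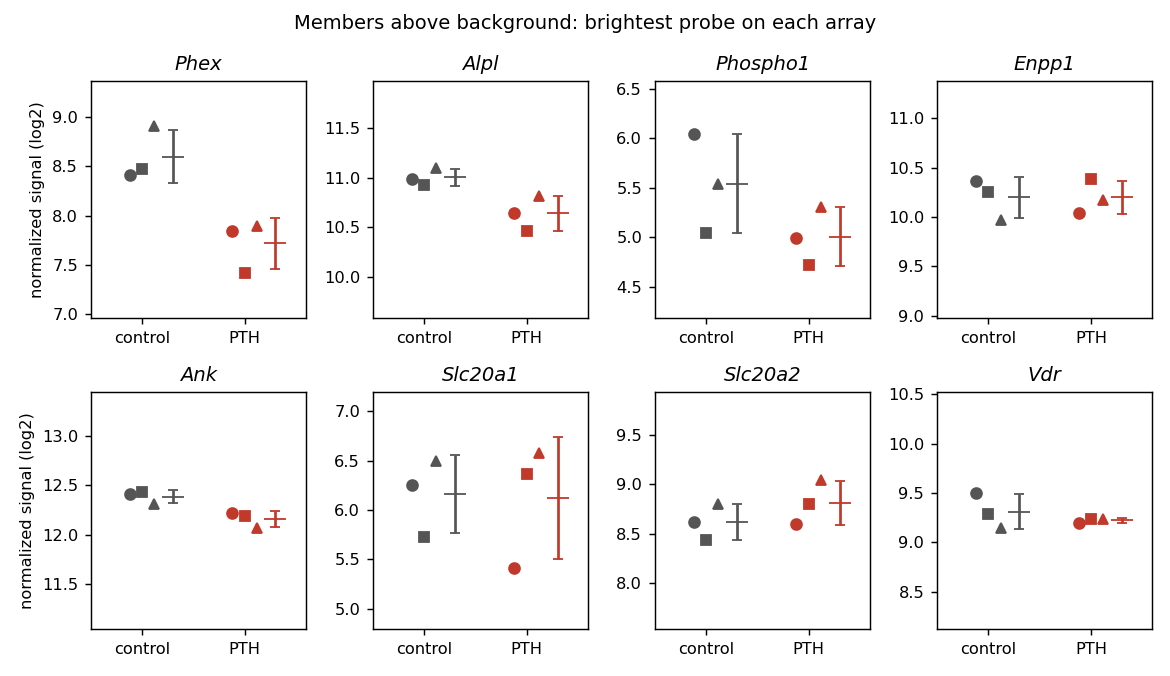
Normalized signal (log2, vertical axis) of the brightest probe of each of the 8 tested genes on every array, with controls in grey and PTH in red. The symbols mark replicate 1 (circle), 2 (square) and 3 (triangle), the bars give the mean ± SD (n = 3), and all panels span the same range. The control and PTH arrays are apart for *Phex*, *Alpl* and *Ank* and overlap for the other 5 genes.

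*Phex* encodes a membrane endopeptidase of osteocytes and osteoblasts whose loss raises FGF23 and causes X-linked hypophosphataemic rickets. Its normalized signal was 8.41, 8.47 and 8.90 (log2) for control and 7.84, 7.42 and 7.89 for PTH. Each PTH array lay below each control array. The means were 8.60 ± 0.27 (SD, n = 3) and 7.72 ± 0.26 (SD, n = 3). The change on the log2 scale was -0.88 (SE 0.19, 95% interval -1.32 to -0.44), or 1.84-fold lower with PTH. The limma p was 0.00182 and its adjusted p was 0.0761, so *Phex* missed the threshold. By p it ranked 300 of 11979 genes, within the first 2.50%. *Phex* had 1 probe, above background on all 6 arrays. The signals as deposited were 368, 453 and 564 for control and 274, 263 and 429 for PTH, and there PTH replicate 3 lay above control replicate 1. That array was the brightest of the 6 over the tested probes, at a median signal of 273 where the other 5 were between 188 and 227.

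The call for *Phex* moved with the background correction and the filter. Under quantile normalization without background correction its log2 fold change was -0.65 and the limma adjusted p was 0.00155, with an offset of 50 they were -0.78 and 0.0111, and with only probes at a detection p under 0.01 on all arrays they were -0.88 and 0.0286. These 3 settings called it. *Phex* was not called under cyclic loess (limma adjusted p = 0.0686), with the replicate number as a block (0.0913), without a detection filter (0.145) or under median scaling (0.337). When any single array was omitted its log2 fold change stayed between -0.97 and -0.72, and the limma adjusted p was 0.115 to 0.187.

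*Alpl* encodes tissue-nonspecific alkaline phosphatase, which removes pyrophosphate and frees phosphate at the surface of mineralizing cells. Its signal was 10.99, 10.92 and 11.10 (log2) for control and 10.64, 10.46 and 10.81 for PTH. The groups did not overlap, and PTH replicate 3 came closest to the controls. The log2 fold change was -0.36 (SE 0.14, 95% interval -0.68 to -0.04), 1.29-fold lower with PTH, with an unadjusted p of 0.0303 and a limma adjusted p of 0.273. In size this was smaller than the change of *Phex* and larger than the median absolute change of all genes tested, 0.16.

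*Phospho1* encodes a phosphatase that frees phosphate from phosphocholine inside matrix vesicles. It was dim, above background on 2 control arrays and 1 PTH array. Its signal was 6.04, 5.04 and 5.54 (log2) for control and 4.99, 4.72 and 5.31 for PTH, and the groups overlapped. The log2 fold change was -0.53 (SE 0.26, 95% interval -1.15 to 0.08, limma adjusted p = 0.411), so neither no change nor a fall larger than that of *Phex* lay outside the interval. Without background correction the change was -0.18, with an offset of 50 it was -0.29, and omitting control replicate 1 gave -0.29 and omitting control replicate 2 gave -0.79.

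Pyrophosphate comes from the enzyme encoded by *Enpp1*, which cuts it from nucleotides outside the cell, and from *Ank*, a membrane protein through which cells release it. The brightest *Enpp1* probe read 10.37, 10.26 and 9.97 (log2) for control and 10.04, 10.38 and 10.17 for PTH. The groups lay within one another, and the log2 fold change was 0.00 (SE 0.16, 95% interval -0.36 to 0.36, limma adjusted p = 1.00). The second *Enpp1* probe read 8.89, 8.79 and 8.39 for control and 9.13, 8.69 and 9.41 for PTH, and its change was 0.39 on the log2 scale (SE 0.22, 95% interval -0.11 to 0.89, limma adjusted p = 0.471). Both probes missed the threshold, and the direction for *Enpp1* rests on which probe is read.

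The single *Ank* probe, above background on all 6 arrays, read 12.41, 12.43 and 12.31 (log2) for control and 12.22, 12.19 and 12.06 for PTH. All PTH arrays were below all control arrays by a narrow margin. The log2 fold change was -0.22 (SE 0.12, 95% interval -0.50 to 0.05), 1.17-fold lower with PTH, with an unadjusted p of 0.0963 and a limma adjusted p of 0.442.

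The separation of *Phex*, *Alpl* and *Ank* depended on the scaling. It was present in 4 of 6 scalings and was lost in the signals as deposited and under median scaling. The means of all 3 genes were lower with PTH under every normalization tried. Under median scaling the log2 fold change was -0.22 for *Alpl* and only -0.05 for *Ank*, where the median of all genes tested was 0.12. The remaining 5 genes overlapped in all 6 scalings.

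**Figure D2:**
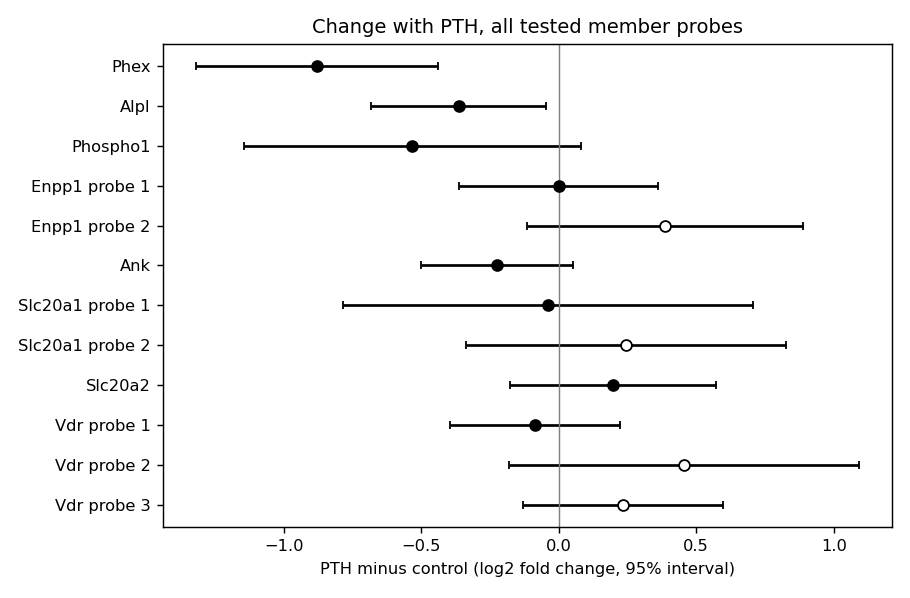
Log2 fold change of PTH over control (horizontal axis) for the 12 tested probes of the 8 genes, with the 95% interval from limma. Filled points are the brightest probe of a gene and open points its other probes, and the intervals of *Phex* and *Alpl* alone lie wholly below 0.

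*Slc20a1* and *Slc20a2* encode the sodium-dependent phosphate transporters PiT1 and PiT2. The brightest *Slc20a1* probe read 6.25, 5.73 and 6.50 (log2) for control and 5.42, 6.37 and 6.58 for PTH, with the lowest and the highest of the 6 values both in the PTH group. Its log2 fold change was -0.04 (SE 0.32, 95% interval -0.79 to 0.71, limma adjusted p = 0.972). A second *Slc20a1* probe gave 0.25 (SE 0.25, limma adjusted p = 0.722), and the remaining one was above background on no array. For *Slc20a2* the tested probe read 8.62, 8.43 and 8.80 for control and 8.60, 8.80 and 9.04 for PTH. By the brightest probes this was the one gene whose mean was higher with PTH, and its groups overlapped. The change was 0.20 on the log2 scale (SE 0.16, 95% interval -0.18 to 0.57, limma adjusted p = 0.643). Its change was 0.08 without PTH replicate 3, 0.11 without control replicate 2 and 0.30 without PTH replicate 1. Under median scaling it was 0.34, where the median of all genes tested was 0.12. Its other probe was above background on no array. The interval for *Slc20a1* is wide, and a 1.5-fold change in either direction lies inside it.

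*Vdr* encodes the nuclear receptor for vitamin D, and *Cyp24a1* the enzyme that breaks active vitamin D down and is a textbook target of that receptor. The brightest *Vdr* probe read 9.50, 9.29 and 9.15 (log2) for control and 9.20, 9.24 and 9.24 for PTH. The PTH values lay inside the control range, and the log2 fold change was -0.09 (SE 0.13, 95% interval -0.40 to 0.22, limma adjusted p = 0.830). The other *Vdr* probes gave 0.46 (SE 0.27, 95% interval -0.18 to 1.09, limma adjusted p = 0.510) and 0.23 (SE 0.16, limma adjusted p = 0.565), in the opposite direction and also short of the threshold. *Cyp24a1* was not above background on any array. Its deposited signals were 108, 128 and 116 for control and 105, 96.6 and 108 for PTH, close to the median of all probes, so no fold change is given.

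*Fam20c*, the kinase that phosphorylates secreted proteins of bone and teeth, could not be measured under its symbol.

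**Figure D3:**
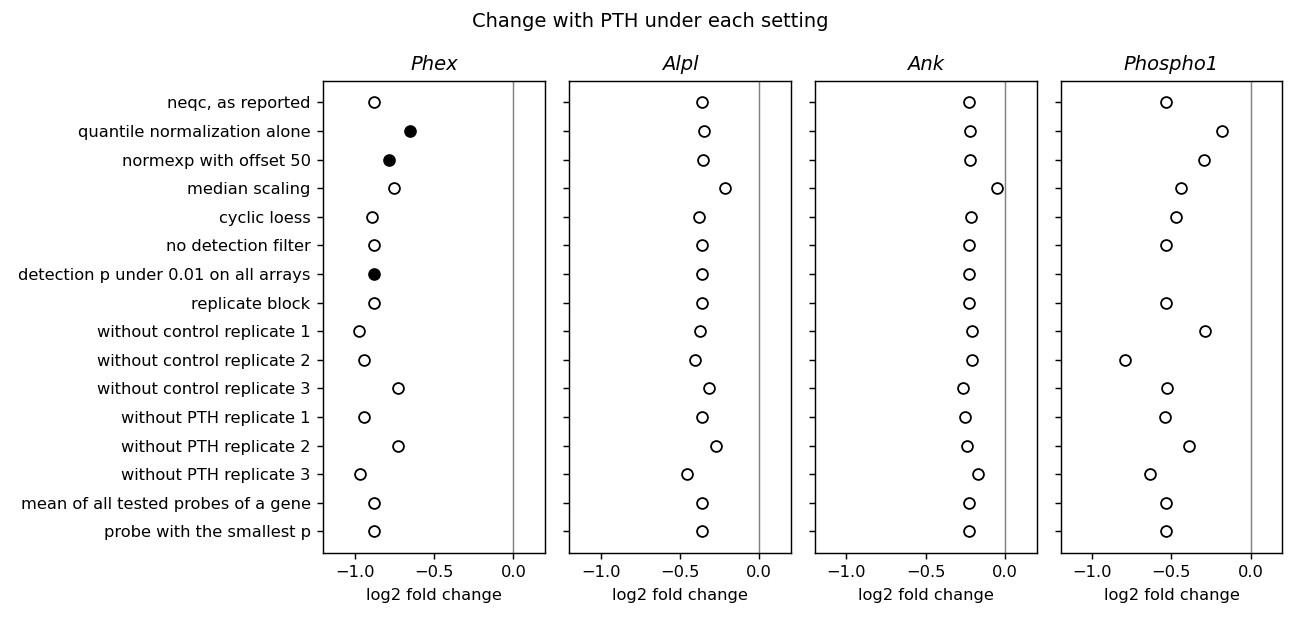
Log2 fold change of PTH over control (horizontal axis) of *Phex*, *Alpl*, *Ank* and *Phospho1* under each processing setting (rows). Filled points have a limma adjusted p under 0.05, which only *Phex* reached, in 3 settings, and every point of the 4 genes is below 0. *Phospho1* could not be tested under the strict detection filter.

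Differences between pairs of these genes on the same array do not depend on a scaling that both probes share. Each gene was read by its brightest probe alone. Only the change of a difference between groups is read here, since levels of different probes cannot be compared. For *Phex* minus *Alpl* the difference was -2.57, -2.45 and -2.19 (log2) in control and -2.80, -3.04 and -2.92 with PTH. The groups did not overlap, and *Phex* moved by -0.51 relative to *Alpl*. The exact two-sided permutation p was 0.1, the smallest this design allows, and 0.5 after Benjamini-Hochberg adjustment over the 5 pairs. The size of this change depended on the background correction: it was -0.31 under quantile normalization alone and -0.43 with an offset of 50. *Alpl*, which removes pyrophosphate, moved by -0.36 relative to *Enpp1*, which makes it (0.62, 0.67 and 1.13 for control, 0.60, 0.08 and 0.64 for PTH, exact permutation p = 0.2). These groups overlapped. Relative to *Ank*, *Alpl* moved by -0.14 (exact permutation p = 0.4), *Phospho1* moved by -0.17 relative to *Alpl* (exact permutation p = 0.8), and *Slc20a1* moved by -0.24 relative to *Slc20a2* (exact permutation p = 0.5). After adjustment the last 3 were at 0.625, 0.8 and 0.625. With 3 arrays a group no pair could pass a threshold of 0.05, so these exact tests cannot separate a change from none. The change of *Alpl* relative to *Enpp1* was -0.18 without PTH replicate 2 and -0.20 without control replicate 3, and relative to *Ank* it was -0.03 without PTH replicate 2, -0.05 without control replicate 3 and -0.28 without PTH replicate 3.

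**Figure D4:**
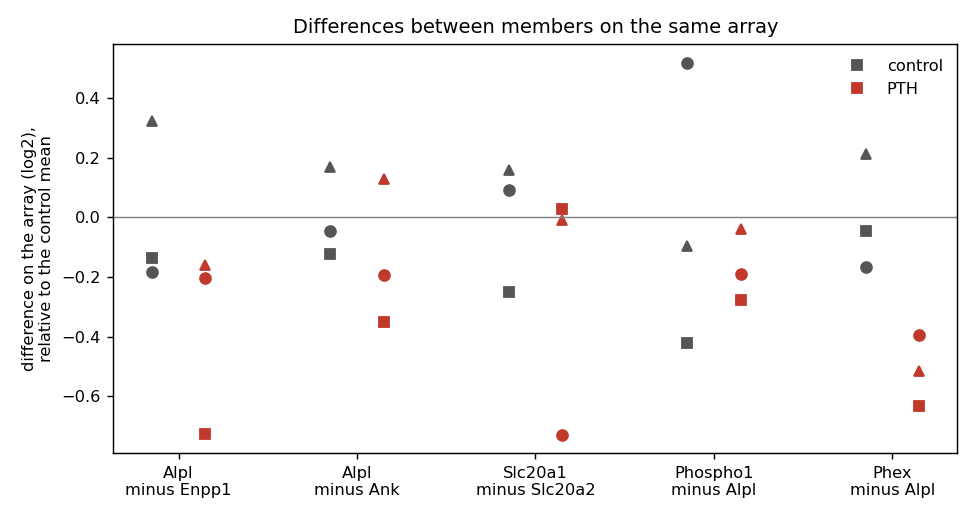
Difference between the signals of 2 genes on the same array (log2, vertical axis), shown relative to the control mean of that pair, for 5 pairs. Grey is control and red is PTH, and circle, square and triangle are replicates 1, 2 and 3. Each gene is read by its brightest probe, and with these probes all PTH arrays lie below all control arrays for *Phex* minus *Alpl* alone.

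The promoters of the 3 genes whose arrays did not overlap are shown because PTH signals in bone cells largely through cyclic AMP, and the factor CREB, which this pathway activates, binds the letters TGACG. Windows are the 250 bases before an annotated start, from RefSeq on GRCm38.p6, read 5′ to 3′ on the strand of the gene. TGACG on either strand (CGTCA when read on the other) is in capitals. *Alpl* has 2 annotated starts, the second of them inside the gene. The windows are chrX:157415287-157415536, minus strand, for *Phex*, chr4:137796385-137796634 and chr4:137766476-137766725, minus strand, for *Alpl*, and chr15:27466427-27466676, plus strand, for *Ank*.
Phex: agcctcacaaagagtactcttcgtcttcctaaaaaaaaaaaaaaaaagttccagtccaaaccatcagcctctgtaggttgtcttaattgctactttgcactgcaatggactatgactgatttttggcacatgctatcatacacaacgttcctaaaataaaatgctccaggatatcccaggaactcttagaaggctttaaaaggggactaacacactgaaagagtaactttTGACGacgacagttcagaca
Alpl, outer start: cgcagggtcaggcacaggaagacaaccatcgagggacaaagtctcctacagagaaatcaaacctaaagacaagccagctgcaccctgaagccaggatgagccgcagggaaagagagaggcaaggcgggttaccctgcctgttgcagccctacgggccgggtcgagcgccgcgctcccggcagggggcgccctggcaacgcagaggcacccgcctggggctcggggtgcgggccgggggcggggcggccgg
Alpl, inner start: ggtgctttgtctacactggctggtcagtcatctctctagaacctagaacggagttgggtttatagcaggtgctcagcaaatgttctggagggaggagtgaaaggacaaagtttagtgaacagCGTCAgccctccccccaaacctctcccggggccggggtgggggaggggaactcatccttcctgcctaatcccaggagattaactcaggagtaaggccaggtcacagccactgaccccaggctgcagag
Ank: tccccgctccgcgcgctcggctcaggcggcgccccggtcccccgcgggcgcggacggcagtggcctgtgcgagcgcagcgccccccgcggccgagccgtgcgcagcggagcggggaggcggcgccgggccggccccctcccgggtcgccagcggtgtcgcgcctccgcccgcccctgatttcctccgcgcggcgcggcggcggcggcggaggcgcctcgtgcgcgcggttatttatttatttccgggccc

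In the *Phex* window the motif begins 20 bases before the start, in a window of 39.2% GC. The outer *Alpl* window (68.4% GC) and the *Ank* window (81.2% GC) hold no match, and the inner *Alpl* window has one on the opposite strand, 128 bases before the start. Windows existed for 8 of the 10 genes, all but *Slc20a2* and *Cyp24a1*, and 7 of their 10 windows (70.0%), from 6 genes, held TGACG. It was found in 17.8% of all 32851 promoter windows and in 26.0% of the 6750 windows of genes tested on the arrays. The matches in *Enpp1*, *Phospho1*, *Slc20a1* and *Fam20c* belong to genes whose arrays overlapped or that were not measured, and the *Vdr* window held none. The full motif TGACGTCA, which contains the shorter one, was in none of the 10 windows and in 1.55% of all windows. A match is a string of letters and not a measured binding site.

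The genes whose 6 array values were most like those of *Phex*, by Pearson r over 6 arrays, were *Dnmt3l* (0.997), *Tgfb1* (0.995), *mt-Nd5* (0.991), *Nkx6-2* (0.989) and *Cryab* (0.987). This is a description of 6 arrays that share their groups and normalization.

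Around these genes, 57 others of phosphate and mineral metabolism were read, of which 56 had a probe and 34 were tested. Limma called 3 of the 34 lower and 2 higher with PTH, where 1.04% of all genes were called lower and 0.685% higher. These lists were chosen with earlier results of these data known, so their counts are a description and cannot show enrichment. The called genes were *Ibsp*, *Pth1r* and *Mepe*, lower, and *Car2* and *Dipk1c*, higher. Of these, *Dipk1c* passed the detection filter through the PTH arrays alone. With the replicate number as a block in the fit, *Ibsp* alone stayed called. Over the 34 genes the median log2 fold change was 0.05, the groups did not overlap for 16, where 21.9% of all genes did not, and the mean was lower with PTH for 14.

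In the phosphate hormone axis 2 of 8 tested genes were called, both lower. *Pth1r* (listed as *Pthr1*), the receptor for PTH, read 9.98, 10.19 and 9.87 (log2) for control and 8.84, 8.47 and 8.62 for PTH. Its log2 fold change was -1.37 (SE 0.15, limma adjusted p = 0.00693), 2.59-fold lower, and its other probes gave -1.30 (limma adjusted p = 0.00293) and -0.74 (limma adjusted p = 0.144). *Mepe*, a matrix protein of osteocytes that binds PHEX and restrains mineralization, read 12.17, 12.26 and 12.34 for control and 11.11, 11.19 and 11.41 for PTH. Its log2 fold change was -1.02 (SE 0.13, limma adjusted p = 0.0128), 2.03-fold lower. Under median scaling the call for *Mepe* was lost (limma adjusted p = 0.167), at a log2 fold change of -0.86. That fit gave *Mepe*, *Pth1r* and *Ibsp* the same SE, 0.29. The call for *Mepe* was also lost in 5 of the 6 fits with an array left out. In those 5 the limma adjusted p was 0.0546 to 0.0649. Without PTH replicate 3 the call held, at a limma adjusted p of 0.0293. *Dmp1*, an osteocyte matrix protein that like *Phex* holds FGF23 down, changed by -1.21 on the log2 scale (SE 0.24, limma adjusted p = 0.0557) and was not called, although its arrays did not overlap. The remaining 5 genes of this group, *Fgfr1*, *Fgfr2*, *Furin*, *Xpr1* and *Slc25a3*, had log2 fold changes between -0.25 and 0.48 and were not called. *Fgf23*, its co-receptor *Kl* and the kidney and gut phosphate transporters *Slc34a1*, *Slc34a2* and *Slc34a3* were above background on no array.

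In the vitamin D group none of 7 tested genes was called by limma, and none had an unadjusted p under 0.05. The smallest was that of *Rxra*, a partner of the vitamin D receptor, at -0.27 on the log2 scale (SE 0.22, limma adjusted p = 0.641). *Cyp27b1* and *Cyp2r1*, enzymes on the path to active vitamin D, were above background on no array. Counting these, 8 genes of this list had no tested probe.

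In the mineralization and pyrophosphate group 1 of 14 tested genes was called lower and 1 higher. *Ibsp*, bone sialoprotein, a matrix protein that nucleates mineral, read 12.56, 12.51 and 12.50 (log2) for control and 10.55, 10.53 and 10.47 for PTH. Its log2 fold change was -2.01 (SE 0.11, limma adjusted p = 0.000747), 4.02-fold lower, and all 3 of its probes were called. *Car2*, the carbonic anhydrase that osteoclasts use to make acid, read 5.40, 5.74 and 5.65 for control and 7.12, 6.75 and 7.01 for PTH. Its log2 fold change was 1.37 (SE 0.15, limma adjusted p = 0.00774), 2.58-fold higher, and this was 0.61 on the log2 scale under quantile normalization without background correction. *Smpd3*, a sphingomyelinase needed for mineralization, was at -1.10 on the log2 scale (SE 0.27, limma adjusted p = 0.116), and *Enpp2*, a relative of *Enpp1* that makes lysophosphatidic acid rather than pyrophosphate, at 0.74 (SE 0.14, limma adjusted p = 0.0532). The mineralization inhibitor *Mgp* (listed as *Mglap*) was at 0.36 (SE 0.14, limma adjusted p = 0.293) and osteopontin, *Spp1*, at 0.01 (SE 0.13, limma adjusted p = 0.984). None of these 4 was called.

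Of the kinases related to *Fam20c*, 1 of 5 tested was called. *Dipk1c* (listed as *B230399E16Rik*) was above background on all 3 PTH arrays and on no control array. Its measured value was 2.03-fold higher with PTH (adjusted p = 0.0105, limma). With the lowest detected signal of each control array in place of the gene's own value, it was 1.76-fold higher. The gene passed the detection filter through the PTH arrays alone, where it was high, so its call is not independent of the filter. The call was lost in 4 of 6 fits with 1 array left out, without control replicate 1 or 3 and without PTH replicate 2 or 3, with limma adjusted p up to 0.0549, and its fold change was under 1.5 without background correction and with an offset of 50. *Fam20b*, a kinase that phosphorylates xylose in proteoglycans, was at 0.35 on the log2 scale (SE 0.23, limma adjusted p = 0.542). None of the further alkaline phosphatase genes *Alpi*, *Alppl2* and *Akp3* had a tested probe.

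**Figure D5:**
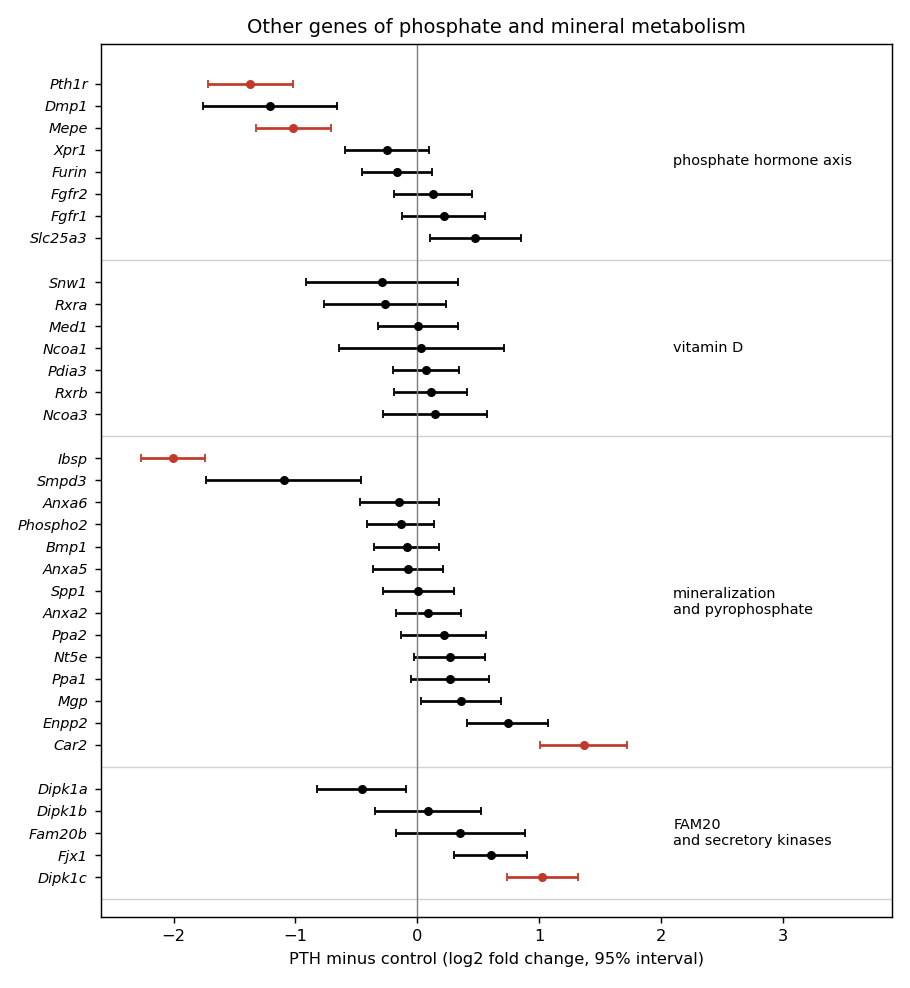
Log2 fold change of PTH over control (horizontal axis) with the 95% interval from limma for the 34 tested genes around the main set, in 4 groups. Red marks the 5 called genes, *Pth1r*, *Mepe* and *Ibsp* below 0 and *Car2* and *Dipk1c* above 0.

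Markers of several cell types moved with PTH in the same arrays. Of all genes tested, 1.04% were called lower and 0.685% higher. The osteocyte list, which holds *Dmp1* and *Mepe*, had 2 of 7 tested genes called lower by limma and a median log2 fold change of -1.02. Its member *Pdpn* (listed as *Gp38*), a marker of early osteocytes, went the other way, at 0.70 on the log2 scale (limma adjusted p = 0.0560), with every PTH array above every control array. The list's summed normalized signal was 7994 to 9168 in control and 6315 to 7554 in PTH. The osteoblast list, which holds *Ibsp*, had 2 of 5 called lower, with a median of -0.54 and sums of 32453 to 33496 in control and 21755 to 22929 in PTH. Neither *Runx2* nor *Kera* was above background on any array. *Phex* and *Alpl* are expressed by both cell types. The log2 fold change of *Phex*, -0.88, lay between the medians of these 2 lists, and that of *Alpl*, -0.36, was smaller in size than both, with no test of either difference.

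The osteoclast list had 3 of 5 tested genes called higher, with a median of 0.84. Its sums were 11881 to 13358 in control and 16117 to 20631 in PTH. *Calcr* and *Atp6v0d2* of this list were above background on no array. Red cell genes were lower in 2 of 2, with a median of -1.93 and sums of 8521 to 9978 in control and 2329 to 2606 in PTH. Genes of neutrophils and myeloid cells were called lower in 5 of 8, with a median of -0.74 and sums of 54346 to 55114 in control and 34932 to 39500 in PTH. The cartilage list, whose cells also express *Alpl*, *Phospho1*, *Enpp1* and *Ank*, had 1 of 4 called lower and a median of -0.69. Its sums were 355 to 370 in control and 223 to 274 in PTH. The called gene, *Acan*, passed the detection filter through the control arrays alone, where it was high, so its call is not independent of the filter. Of the macrophage list 0 of 6 were called by limma (3 at an unadjusted p under 0.05), with a median of -0.49 and sums of 5796 to 5967 in control and 4555 to 4851 in PTH. Of the endothelium list 0 of 5 were called (0 unadjusted), with a median of -0.28. The B lymphocyte (0 of 2 called, 1 unadjusted, median 0.25), muscle (0 of 1 called, 0 unadjusted, median -0.08) and fat (0 of 3 called, 1 unadjusted, median 0.17) lists held few tested genes. The part of these cell types in the values of the phosphate and mineralization genes was not tested.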

How the data were processed

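Bone tube RNA from 3 control and 3 PTH preparations was hybridized to Illumina mouse bead arrays and processed in GenomeStudio, per the labels; its version is not given in the sources used here. The authors deposited linear signal intensity for each of 45281 probes, neither normalized nor background subtracted. Beside each intensity the authors deposited a detection p-value against negative controls. Their normalized values and differential scores were not used here, and the study's methods state quantile normalization with that score.

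From these, neqc in limma 3.58.1 under R 4.3.3 gave normexp background correction from the detection p-values, an offset of 16, quantile normalization and log2 values. Probes with a detection p under 0.05 on at least 3 of 6 arrays were tested (16214) by lmFit and eBayes without a block, and p-values were adjusted over all of them by the Benjamini-Hochberg method. A gene was read by its brightest tested probe. Differences within arrays were tested by exact permutation. The procedure was tested on simulated data.

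The genes and lists were chosen with earlier results of these data known. Named were all 10 genes, every called gene of the surrounding lists or else that with the smallest p, and the 5 genes most like the one with the smallest adjusted p. Further genes of the lists were named for their role or their values, after these were seen. Older symbols were matched through RefSeq's gene table. Probe sequences were not used here. Same-numbered control and PTH arrays deviated from their group means with r of 0.07, 0.06 and 0.27. Control 1 with PTH 2 and control 2 with PTH 1 gave 0.07 each. Different-numbered arrays that included a replicate 3 gave -0.14 to -0.13. The labels do not say that a number marks shared mice, day or slide, so the main fit has no block. Whether the replicate 3 arrays share a factor was not tested. No arrays were identical. Alternatives were other normalizations, detection filters, probe rules and thresholds, treat, the replicate block, leaving out each array, and Student's t-test. The study's methods name that t-test in general, and the differential score for the arrays.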

Additional observations from a re-analysis of the deposited data

How the results depend on the processing

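No phosphate or mineralization gene was called by limma in the reported setting, and 1 was, *Phex* in each case, under quantile normalization alone, an offset of 50, a detection p under 0.01 on all arrays, or an unadjusted p with a fold of 1.5. By Student's t-test, which was not the study's test of the arrays, 3 passed unadjusted and 0 after Benjamini-Hochberg adjustment. The replicate block, each array left out and every other setting called 0. Of the surrounding genes 5 were called, 1 with the replicate block (*Ibsp*, limma adjusted p = 0.0131), which put *Pth1r* at an adjusted p of 0.0517, *Mepe* at 0.0508, *Car2* at 0.0568 and *Dipk1c* at 0.0517, and 3 to 5 with 1 array left out (3 without control replicate 1 or 3 or PTH replicate 2). Over all genes 207 were called (125 lower, 82 higher). The count was 104 under median scaling (41 lower, 63 higher), which moved the median of all genes to 0.12, 44 with the replicate block, 48 to 78 with 1 array left out, 17 by treat and 622 at an unadjusted p with a fold of 1.5. It was 139 under quantile normalization alone, and by Student's t-test 1783 unadjusted and 91 adjusted. *Phex*, *Alpl*, *Ank* and *Phospho1* were lower and *Slc20a2* higher in all settings, though their sizes moved: *Phospho1* ranged from -0.79 to -0.29 and *Slc20a2* from 0.08 to 0.30 with 1 array left out, and *Ank* was at -0.05 under median scaling. *Enpp1*, *Vdr* and *Slc20a1* had no stable direction. *Enpp1* turned to 3.86e-05 under quantile normalization alone, 0.14 under median scaling, 0.19 for the mean of its probes and 0.39 for the probe with the smallest p. *Vdr* turned to 0.0750, 0.20 and 0.46 under the last 3 of these settings. *Slc20a1* turned to 0.0846, 0.10 and 0.25 under the same 3 and to 0.0040 under cyclic loess. With 1 array left out they ranged from -0.11 to 0.0837, -0.17 to 0.0101 and -0.26 to 0.31. *Phospho1* minus *Alpl* turned to 0.17 under quantile normalization alone and 0.0644 with an offset of 50. Leaving out 1 array put it between -0.39 and 0.0811, and *Slc20a1* minus *Slc20a2* between -0.37 and 0.0113. The causes were not tested. *Phospho1* and *Slc20a1* could not be fitted under the strict detection filter, where they are near background, and no slide block was run because no slide is named.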
